A study of Mus musculus with 18 samples.

Results

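The H3K9ac regions described here are places in the genome of the embryonic mouse cortex that carried a peak of histone H3 acetylated at lysine 9 more often in TSA than in Vehicle libraries. Peaks of 8 lists, 4 from TSA and 4 from Vehicle, were merged wherever they shared at least 1 bp, which gave 104737 regions. A region was a member when the number of TSA libraries with a peak minus the number of Vehicle libraries with a peak was 3 or 4. This rule chose 1776 regions, 1.7% of all. The presence of peaks chose them, so their occupancy and peak strength are given as description and were not tested.

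All samples came from whole cortex at E15.5, an embryonic day during cortical neurogenesis, from BAF155 cKO mice. Smarcc1 encodes BAF155, one of the central proteins of the BAF chromatin remodeller, and cKO denotes a conditional knockout, carried by the TSA and the Vehicle samples alike. The TSA samples came from mice given trichostatin A, an inhibitor of histone deacetylases, and the Vehicle samples from mice given the vehicle. The sources used here do not give the driver of the deletion, the dose and timing of TSA or the number of animals per library. Each treatment had 4 RNA and 4 H3K9ac libraries, and the title asks how H3 acetylation bears on basal progenitors and on Trnp1. No samples with an intact gene were analysed here.

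Acetylation of lysine 9 of histone H3 is laid down by acetyltransferases, removed by deacetylases and found at active gene starts and enhancers. In the developing cortex, apical progenitors that express Pax6 give rise to basal intermediate progenitors that express Eomes, and these give rise to neurons that express Tbr1. Neurog1 and Neurog2 are proneural transcription factors that promote this transition.

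As a check of the mark, of the 12400 regions with a peak in all 8 libraries, those on chromosomes other than 18 lay within 2.5 kb of a gene start in 75.8% of cases. List lengths differed between libraries. TSA 1 to 4 had 46714, 53285, 32248 and 61217 peaks from 15529531, 16018415, 15365856 and 19920755 tags. Vehicle 1 to 3 had 41987, 41331 and 43645 peaks from 11824246, 15890014 and 13822996 tags, and Vehicle 4 had 22.7 × 1000 peaks from 24075842 tags. The groups overlapped in peaks per library (48366 ± 12273 in TSA and 37408 ± 9875 in Vehicle, SD, n = 4 each, two-sided exact permutation p = 0.229, where the smallest possible is 0.0286). TSA 3 had the fewest peaks of the TSA libraries, and Vehicle 4 had the most tags of all 8 libraries and the fewest peaks. The rule was therefore also applied to the peaks of highest −log10(q) in each list, as many as Vehicle 4 had in all, so that all lists had the same length.

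The promoter windows of 5 genes are printed here, each overlapped by a member in whole or in part. They were chosen because a member overlapped the window and the gene had one of the 10 smallest RNA p-values among genes with a member at their start. Rlbp1 encodes a retinaldehyde-binding protein, Neurog1 a proneural factor, Cdhr1 a cadherin-related protein known from photoreceptors, Pax6 a homeodomain factor of apical progenitors and Nav2 a protein of neurite outgrowth. RNA of Rlbp1, Neurog1 and Nav2 rose in TSA and that of Cdhr1 and Pax6 fell, as described below. Each window runs 5′ to 3′ along the gene, from 250 bases before to 50 bases after the start, as listed by RefSeq for GRCm38.p6, and capitals mark the letters of the 7 motifs searched. The windows lie at chr7:79386978-79387277 (minus strand, an internal start of the gene) for Rlbp1, chr13:56252131-56252430 (minus strand) for Neurog1, chr14:37098298-37098597 (minus strand) for Cdhr1, chr2:105682213-105682512 (plus strand, an internal start of the gene) for Pax6 and chr7:48958823-48959122 (plus strand) for Nav2.
Rlbp1: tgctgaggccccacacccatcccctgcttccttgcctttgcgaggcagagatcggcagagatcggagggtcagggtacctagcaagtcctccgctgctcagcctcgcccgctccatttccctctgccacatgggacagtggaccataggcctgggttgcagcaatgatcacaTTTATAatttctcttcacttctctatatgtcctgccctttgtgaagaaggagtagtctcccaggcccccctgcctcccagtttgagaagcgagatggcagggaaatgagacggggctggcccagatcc
Neurog1: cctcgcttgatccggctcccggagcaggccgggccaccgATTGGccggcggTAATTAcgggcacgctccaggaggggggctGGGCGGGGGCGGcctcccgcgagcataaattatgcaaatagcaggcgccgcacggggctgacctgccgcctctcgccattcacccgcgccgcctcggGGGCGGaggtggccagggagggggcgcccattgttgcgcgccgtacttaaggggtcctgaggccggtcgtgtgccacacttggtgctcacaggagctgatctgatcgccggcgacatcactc
Cdhr1: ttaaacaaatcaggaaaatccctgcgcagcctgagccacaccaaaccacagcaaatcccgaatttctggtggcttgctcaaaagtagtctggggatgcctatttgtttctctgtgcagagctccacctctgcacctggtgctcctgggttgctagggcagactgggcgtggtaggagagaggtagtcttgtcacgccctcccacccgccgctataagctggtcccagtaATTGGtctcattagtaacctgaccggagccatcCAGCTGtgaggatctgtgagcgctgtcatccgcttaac
Pax6: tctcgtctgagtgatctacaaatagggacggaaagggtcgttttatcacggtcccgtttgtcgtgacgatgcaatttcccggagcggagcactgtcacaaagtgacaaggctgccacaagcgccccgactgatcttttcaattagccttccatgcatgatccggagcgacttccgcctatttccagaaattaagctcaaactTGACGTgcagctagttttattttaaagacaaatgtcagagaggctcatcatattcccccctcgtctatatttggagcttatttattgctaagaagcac
Nav2: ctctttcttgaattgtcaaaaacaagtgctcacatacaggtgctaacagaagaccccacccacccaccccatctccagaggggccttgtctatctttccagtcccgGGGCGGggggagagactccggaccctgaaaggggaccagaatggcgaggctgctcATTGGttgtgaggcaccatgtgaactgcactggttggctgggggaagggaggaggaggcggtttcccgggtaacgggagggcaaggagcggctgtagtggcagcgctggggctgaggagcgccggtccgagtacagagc
The Rlbp1 window held 8 CG dinucleotides, the Neurog1 window 32, the Cdhr1 window 9, the Pax6 window 16 and the Nav2 window 12. The windows of the 3 genes whose RNA rose thus held both the lowest and the highest number of CG dinucleotides of the 5. The member at the Nav2 window ended at 48958869 and that at the Cdhr1 window at 37098516, so parts of these windows lay outside. Both motifs marked in the Nav2 window lay outside the member.

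Members overlapped 190 such windows, of 180 genes. Their median number of CG dinucleotides was 14.5, against 21 in the 14780 windows under any region and 7 in all 32851 windows. Windows with fewer than 10 CG dinucleotides made up 36.8% under members, 17.3% under any region and 56.5% of all. The median GC content was 60.7% under members, 61.7% under any region and 52.7% overall. Promoters under members were thus poorer in CG dinucleotides than those of H3K9ac regions in general, and richer than promoters at large. At equal list length the median under members was 18 over 152 windows, nearer to that of any region in the lists as deposited. The median under all equal-length regions is not given here.

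The 7 motifs were searched on both strands, and a match is only a match of letters. CAGCTG, the symmetric E box, occurred in 24.7% of windows under members, 15.97% under any region and 16.3% of all windows. At equal list length it occurred in 15.8% of windows under members, so the higher share was not seen there. CAGATG, the E box bound by proneural factors, occurred in 12.1% under members, 11.3% under any region and 17.2% of all. The homeodomain core TAATTA occurred in 3.16%, 2.33% and 5.29%, in the same order of sets. GGGCGG, the GC box core, occurred in 51.6%, 63.8% and 35.7%, and CCAAT in 27.9%, 36.2% and 37.4%. TGACGT occurred in 12.1%, 11.1% and 7.51%, and TATAAA in 8.95%, 6.19% and 13.6%. No motif of the 7 lies within another.

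Among the 1776 members, 207 had a peak in all 4 TSA libraries and in no Vehicle library. A further 411 had 4 TSA and 1 Vehicle library, and 1158 had 3 TSA libraries and none of Vehicle. The same rule in the other direction, a difference of −3 or −4, held for 265 regions, 0.253% of all. Of the 1158 regions with 3 TSA libraries, 624 lacked a peak in TSA 3, 291 in TSA 1, 168 in TSA 2 and 75 in TSA 4. Of the 411 regions with 1 Vehicle library, that library was Vehicle 3 in 205, Vehicle 2 in 100, Vehicle 1 in 86 and Vehicle 4 in 20. The missing TSA peaks thus ran in the order of the list lengths, and among the extra Vehicle peaks the longest list gave the most and the shortest the fewest.

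**Figure D1:**
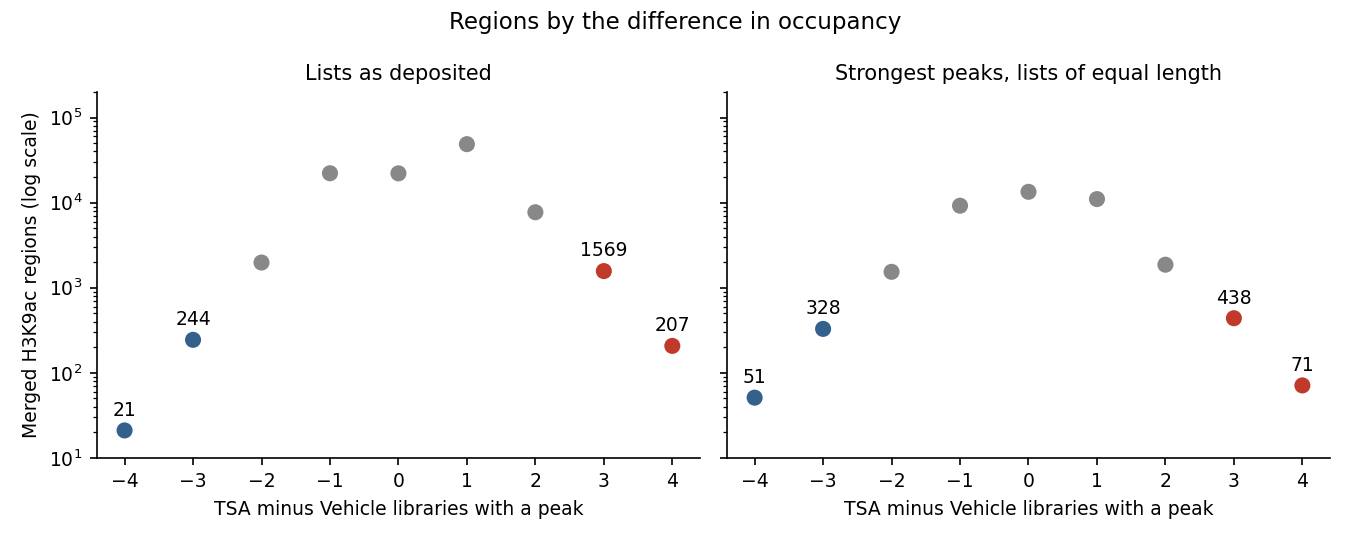
Number of merged H3K9ac regions (log scale) by the number of TSA libraries with a peak minus the number of Vehicle libraries with a peak, for the lists as deposited (left) and for the strongest peaks of each list at equal length (right). Red points are differences of 3 and 4, blue points differences of −3 and −4; as deposited they hold 1569 and 207 against 244 and 21 regions, and at equal length 438 and 71 against 328 and 51.

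At equal list length the 2 directions came closer. The rule then chose 509 of 37926 regions (1.34%), against 379 regions (0.999%) with a difference of −3 or −4. Only 148 of the 1776 members overlapped one of these, which is 8.33% of the members and 29.1% of the equal-length ones. A total of 654 members had no peak among the strongest of any library. Of the others, 1067 still had a higher TSA count and 55 an equal or lower one. Peaks tied in q at the end of the shortened lists moved these counts: other ways of treating ties gave 499 to 668 members and 301 to 382 regions in the other direction.

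Just outside the threshold, a difference of 2, lay 7716 regions with a median width of 339 bp and a median −log10(q) over their TSA peaks of 3.67. Just inside it, a difference of 3, lay 1569 regions with a median width of 443 bp and a median of 3.90. Regions with a difference of 4 had 521 bp and 4.24. These −log10(q) values are the authors' and rank peaks within a list only. Members had a median width of 453 bp, against 231 bp for all regions and 1135 bp for regions present in all 8 libraries.

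The same measure was read in libraries whose own occupancy did not enter the choice. Region boundaries still came from the merged peaks of all 8 libraries, the left-out ones included. Both libraries of one number were left out, regions with a peak in the other 3 TSA and in none of the other 3 Vehicle libraries were chosen, and the left-out libraries were examined. With number 1 left out, 45.3% of 647 regions had a peak in the left-out TSA library and 23.0% in the left-out Vehicle library. With number 2, the shares were 57.5% in TSA and 29.8% in Vehicle (534 regions). With number 4, they were 74.2% in TSA and 7.84% in Vehicle (306 regions). Number 3 went the other way, with 29.2% in TSA and 41.2% in Vehicle (1413 regions).

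Over all regions with a peak among the other 6 libraries, the same shares for numbers 1 to 4 were 32.1%, 35.3%, 22.5% and 42.3% in TSA and 29.3%, 30.9%, 30.4% and 18.1% in Vehicle. TSA 3 and Vehicle 4 also had the lowest shares of their groups there. Averaged over the 4 numbers, the chosen regions had a peak in 51.5% ± 19.0 of cases in TSA and 25.5% ± 13.9 in Vehicle (SD, n = 4 libraries each), and the ranges overlapped. At equal list length, TSA exceeded Vehicle for all 4 numbers, with 54.6%, 53.6%, 45.8% and 67.1% in TSA and 24.7%, 36.5%, 39.0% and 25.5% in Vehicle. Over all regions the equal-length shares were 49.4%, 48.0%, 45.7% and 54.4% in TSA and 49.4%, 50.3%, 52.1% and 43.2% in Vehicle. The 95% Wilson intervals of the TSA and Vehicle shares overlapped there for number 3 and not for numbers 1, 2 and 4. These intervals cover counting error over regions, which are not independent, and not the spread between libraries.

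**Figure D2:**
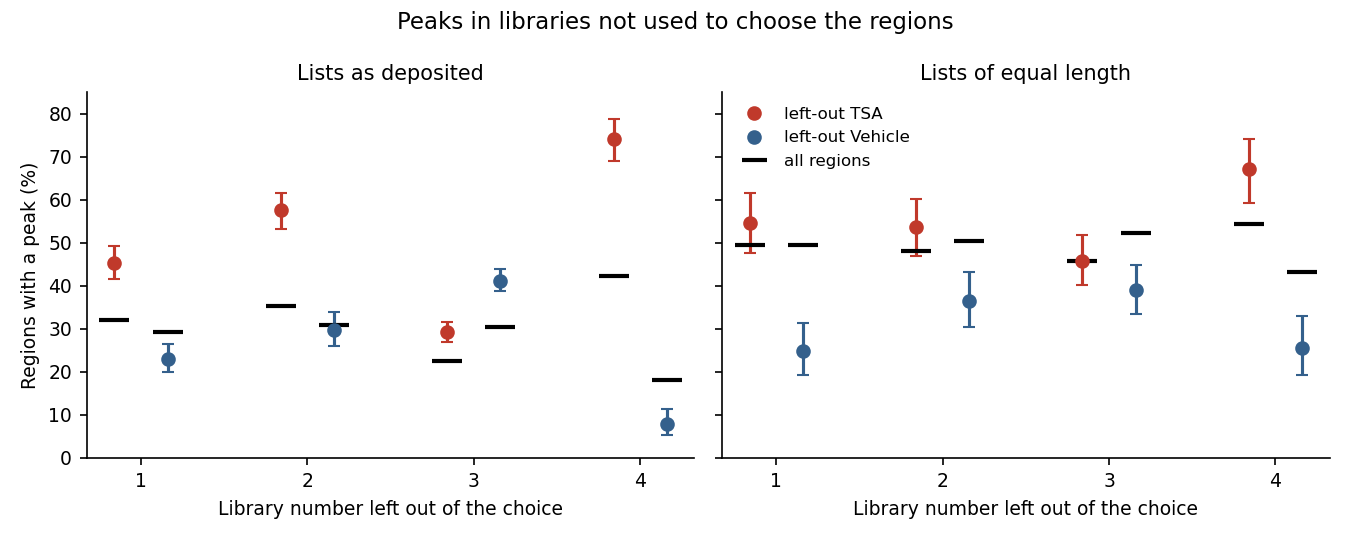
Percent of regions with a peak in a left-out library, for regions chosen from the other 6 libraries as present in 3 TSA and 0 Vehicle libraries, with the lists as deposited (left) and of equal length (right). Red points are the left-out TSA and blue points the left-out Vehicle library with 95% Wilson intervals, and black bars are the shares over all regions; as deposited, number 3 has 29.2% in TSA and 41.2% in Vehicle, the reverse of the other numbers.

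Regions chosen in the opposite way, with 3 Vehicle and 0 TSA libraries among the other 6, were examined too. With number 4 left out, 66.6% of 464 such regions had a peak in TSA 4 and 14.2% in Vehicle 4, so these libraries favoured TSA whichever way the regions were chosen. For numbers 1, 2 and 3 the shares were 30.8%, 25% and 20.5% in TSA and 63.5%, 65.9% and 56.8% in Vehicle, from 52, 44 and 44 regions. At equal list length number 4 still favoured TSA under this opposite choice, with 59.3% in TSA 4 and 41.7% in Vehicle 4 (300 regions). For numbers 1, 2 and 3 the equal-length shares were 27.3%, 35.9% and 27.3% in TSA and 59.1%, 66.7% and 61.2% in Vehicle, from 132, 117 and 121 regions.

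Gene starts were known for all chromosomes except 18, which holds 34 members. Of the other 1742 members, 28.2% lay within 2.5 kb of a gene start, 56.3% elsewhere inside a gene and 15.499% outside genes. All regions divided in nearly the same way, with 30.5%, 52.9% and 16.5%. At equal list length 44.0% of members lay at a gene start. The share of all equal-length regions at a gene start is not given here, so this value has no background beside it. The nearest region present in all 8 libraries was a median of 16.3 kb away from a member, and lay within 1 kb of 15.4% of members.

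Members were not spread evenly. Joined across gaps of at most 50 kb, 724 of them fell into 244 runs of 2 or more, while 1052 stood alone; the runs were described after the positions had been seen. The longest run, 65 members on chromosome 17 from 6229032 to 6698101 (mm10), spans Tmem181a, the dynein light chain genes Dynlt1a, Dynlt1b, Dynlt1c and Dynlt1f and several pseudogene copies of the same genes. Of the 259 regions in that stretch, 243 had more TSA than Vehicle libraries and 1 had fewer. TSA 1 to 4 had 125, 177, 168 and 147 peaks there, and Vehicle 1 to 4 had 18, 27, 33 and 15, with no overlap between the groups. Reads from near-identical copies can be assigned to the wrong copy, and the sources used here do not say how the authors treated such reads.

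The RNA of the genes in this run did not go up with the peaks. Dynlt1b had 18.3, 22.7, 22.8 and 21.8 CPM (counts scaled by TMM to a common library total) in TSA 1 to 4 and 32.0, 40.1, 43.7 and 51.1 CPM in Vehicle 1 to 4, so all TSA libraries were lower. On the log2 scale it fell by 0.95 ± 0.13 (SE, n = 4 per group; adjusted p = 0.000178 by edgeR). Dynlt1a fell by 1.07 ± 0.24 (adjusted p = 0.00338) and Dynlt1f by 0.70 ± 0.18 (adjusted p = 0.00852) on the log2 scale, also edgeR. Tmem181a (log2 fold change −0.20 ± 0.13, adjusted p = 0.252) and Dynlt1c (−0.15 ± 0.36, adjusted p = 0.785) did not pass. These genes are near-identical copies, so their separate counts are uncertain.

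A second run of 14 members covered 28.2 kb of chromosome 7, from 80884590 to 80912797, over Wdr73 and Nmb. Wdr73, which encodes a WD-repeat protein, had 158, 143, 78.3 and 144 CPM in TSA 1 to 4 and 62.3, 62.9, 59.0 and 58.3 CPM in Vehicle 1 to 4. TSA 3 was the lowest TSA library and still above all of Vehicle, and RNA rose by 1.10 ± 0.17 on the log2 scale (SE; adjusted p = 0.000393 by edgeR). Nmb, which encodes the peptide neuromedin B, rose by 1.12 ± 0.34 (edgeR adjusted p = 0.0215) with overlapping groups. A run of 9 members lay around Slc17a7, a vesicular glutamate transporter gene, on chromosome 7. Slc17a7 rose by 0.64 ± 0.10 on the log2 scale (edgeR adjusted p = 0.000236).

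The Y chromosome held 7 members among 98 regions, 7.14%, the highest share of any chromosome. All 7 lay in a single run of 108 kb, from 90730906 to 90839379. Peaks on the Y chromosome numbered 13, 42, 13 and 87 in TSA 1 to 4 and 21, 26, 4 and 0 in Vehicle 1 to 4. In the RNA libraries, Xist, which is transcribed from the inactive X chromosome, had 0.305, 1.47, 0.494 and 2327 CPM in TSA 1 to 4 and 3090, 2071, 1768 and 3118 CPM in Vehicle 1 to 4. Xist was therefore near 0 in 3 of 4 TSA libraries and high in the other 5 RNA libraries. Without the X and Y chromosomes 1749 members remained in the set.

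Of the members with a peak in all TSA libraries and in no Vehicle library, the highest median −log10(q) belonged to chromosome 14, 34781005 to 34781549, outside genes. Its −log10(q) was 14.2, 7.45, 10.2 and 13.4 in TSA 1 to 4. The nearest protein-coding genes were Wapl, which encodes a cohesin release factor, 33.0 kb away, and Grid1, which encodes a glutamate receptor subunit, 38.5 kb away. Neither RNA passed the test: the log2 fold change was 0.17 ± 0.13 for Wapl (edgeR adjusted p = 0.341) and −0.32 ± 0.19 for Grid1 (adjusted p = 0.216).

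The third strongest member, chromosome 3 from 127627493 to 127628740, was 1248 bp wide and lay 3.99 kb from Neurog2. Its −log10(q) was 8.94, 6.51, 10.1 and 13.8 in TSA 1 to 4. Neurog2 had 111, 82.5, 94.7 and 111 CPM in TSA 1 to 4 and 28.5, 41.4, 22.6 and 24.4 CPM in Vehicle 1 to 4. All TSA libraries lay above all Vehicle libraries, with a log2 fold change of 1.76 ± 0.17 (SE, edgeR adjusted p = 2.61e-05). Zgrf1, the gene on the other side, 9.47 kb away, had a log2 fold change of −0.03 ± 0.12 (adjusted p = 0.883).

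The other 8 of the 10 strongest members were more remote or lay in the chromosome 17 run. Another 4 lay inside that run and 1 further upstream on chromosome 17, between Gtf2h5 and Tulp4. Gtf2h5, which encodes a subunit of the repair and transcription factor TFIIH, had 72.4, 80.7, 72.3 and 71.8 CPM in TSA 1 to 4 and 132, 117, 123 and 151 CPM in Vehicle 1 to 4. All TSA libraries were lower, and the RNA fell by 0.81 ± 0.09 on the log2 scale (edgeR adjusted p = 5.55e-05), while Tulp4 did not pass (log2 fold change 0.22 ± 0.11, adjusted p = 0.133). One lay on chromosome 3, 12.4 kb from Cd2, a T-cell gene listed at 0 CPM in all TSA libraries and at 0.0688, 0, 0.551 and 0.317 CPM in Vehicle 1 to 4. One lay in the immunoglobulin heavy-chain locus on chromosome 12 and one on chromosome 18 near Lyzl1, which had no counts in any library. A strong member thus did not imply a transcribed neighbour.

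At equal list length, the strongest members besides those on chromosomes 14 and 18 lay inside genes of young neurons. They lay in the 3′ part of Tbr1 (chromosome 2, 61809962 to 61812028), in Nrn1, which encodes the neurite growth protein neuritin, and in Mef2c, a transcription factor of cortical neurons. Peaks of Vehicle libraries were present at all 3 in the full lists but were not among the strongest at equal length. Nrn1 had 96.9, 95.9, 100 and 94.1 CPM in TSA 1 to 4 and 42.4, 43.1, 34.2 and 39.3 CPM in Vehicle 1 to 4, a log2 fold change of 1.29 ± 0.09 with no overlap (SE, edgeR adjusted p = 8.80e-07). Mef2c rose by 0.48 ± 0.13 (edgeR adjusted p = 0.0131).

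RNA was not used by the rule, so it could be tested. Of 15000 genes tested, 33% were called by edgeR, 15.4% as risen and 17.6% as fallen in TSA. A member lay within 2.5 kb of the start of 533 genes, of which 353 passed the filter on low counts and were tested. Of these 353, 106 rose (30.03%) and 32 fell (9.07%), with a median log2 fold change of 0.14. Genes with any H3K9ac region at their start numbered 10568, of which 16.5% rose and 19.1% fell, with a median of −0.01. All 4 TSA libraries lay above all 4 Vehicle libraries in 88 of the 353 genes (24.9%) and below them in 34 (9.63%), while groups did not overlap in 32.3% of all genes tested (14.9% above, 17.4% below).

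With the lists as deposited, the share of risen genes went with the difference in occupancy. Genes with a region of difference 2 at their start, just outside the rule, rose in 24.9% and fell in 10.9% of 1306 cases. With a difference of 3 the shares were 29.9% and 9.55% of 314, and with 4 they were 36.4% and 4.55% of 44. With a difference of 0, 17.4% rose and 20.2% fell, and with −3, 14.5% rose and 25.8% fell. With lists of equal length it did not go up beyond a difference of 2: differences of 2, 3 and 4 had rises in 26.9%, 26.9% and 20% and falls in 10.1%, 11.4% and 15% of 642, 167 and 20 genes. A gene with several regions counts in each of their classes, so the classes share genes.

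**Figure D3:**
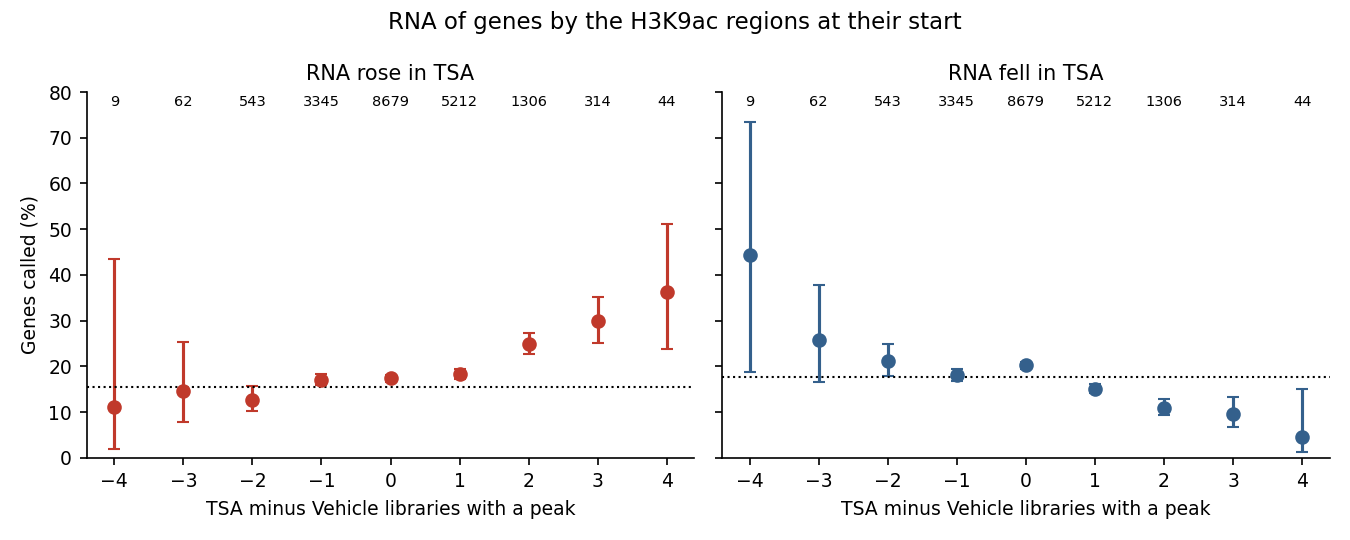
Percent of tested genes whose RNA rose (left) or fell (right) in TSA, by the difference in occupancy of the H3K9ac regions within 2.5 kb of their start. Bars are 95% Wilson intervals, small numbers are genes per class and the dotted line is the share among all tested genes, 15.4% for rises and 17.6% for falls; with a difference of 4, 36.4% rose and 4.55% fell.

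Several settings bear on these shares. Equal-length members lay at the start of 186 tested genes, of which 25.8% rose and 11.8% fell. At 43 genes a member that met both rules was present, and 27.9% rose and 11.6% fell. In 27 genes the only regions at the start were members, and of these 3 rose (11.1%) and 4 fell (14.8%), a lower share of rises than among all genes. Every other linked gene also had a region outside the set at its start.

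Long genes rose more often in TSA, with or without a member. Of all tested genes, 6.01% rose and 25.04% fell where the gene spanned under 10 kb, against 33.9% and 6.94% where it spanned over 300 kb. Among genes with a member at their start, 10.3% of 87 rose and 13.8% fell under 10 kb, 26.7% of 116 rose and 9.48% fell from 10 to 30 kb, and 42.3% of 78 rose and 5.13% fell from 30 to 100 kb. All genes of those classes rose in 6.01%, 11.9% and 21.1%, so the share was higher with a member within each class. From 100 to 300 kb it was 47.9% of 48 with a member against 31.2% of all, and over 300 kb 41.7% of 24 against 33.9%. The classes were set after values had been seen.

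A member lay inside 944 tested genes, of which 38.8% rose and 6.99% fell, with a median log2 fold change of 0.24. Of 13446 tested genes with any region inside, 16.6% rose and 18.5% fell. A region of difference −3 or −4 lay inside 147 tested genes, of which 23.1% rose and 19.7% fell, so rises were also more frequent there than among all genes. Genes with a member inside had a median span of 42.4 kb, against 24.2 kb for all genes tested. RNA levels count whole tissue, in which fewer cells of a type and less RNA per cell cannot be told apart. Summed markers of some cell types differed between the groups, and those of others overlapped. The 25 tested of 26 listed genes of ganglionic eminence and interneurons summed to 994 to 1383 CPM in TSA and 1945 to 2393 CPM in Vehicle. None of these 25 genes had a member inside, where 944 of all 15000 tested genes did. A list of 25 genes is too short to tell 0 from that share. The 9 cortex identity genes summed to 2743 to 3230 CPM in TSA and 1749 to 2488 CPM in Vehicle. The 10 tested of 13 listed erythroid genes summed to 229 to 259 CPM in TSA and 346 to 646 CPM in Vehicle. The sums overlapped between groups for striatal genes (643 to 781 CPM in TSA, 616 to 1177 CPM in Vehicle). They also overlapped for the endothelial and pericyte, meningeal and apical progenitor genes. Listed genes that did not pass the filter on low counts are not in these sums. The part of cell makeup in the RNA results was not tested.

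Xist was above 100 CPM in all Vehicle libraries and, within TSA, only in TSA 4. With Xist above 100 CPM as a factor in the fit, the treatment term therefore compared TSA 4 alone with Vehicle. The median log2 fold change of the 353 genes was 0.14 in that fit as in the one without the factor, but it rested on 1 TSA library. Such a fit cannot separate sex makeup from other differences between TSA 4 and the other TSA libraries. The part of sex makeup in the results was not tested. Mitochondrial reads made up 1.48% to 1.71% of counts in TSA and 1.599% to 3.36% in Vehicle, and RNA totals were 6733415 to 20400727 counts. Without Vehicle 1 and 4, the pair richest in mitochondrial reads, 28.6% of 364 linked genes rose and 7.97% fell.

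Among the genes with a member at their start, Rlbp1 had the smallest p. Its member, chromosome 7 from 79386423 to 79387432, covered the start printed above and had a −log10(q) of 7.94, 7.45, 6.28 and 14.9 in TSA 1 to 4. Rlbp1 had 94.5, 90.6, 70.9 and 84.3 CPM in TSA 1 to 4 and 11.8, 13.2, 10.3 and 10.3 CPM in Vehicle 1 to 4. All TSA libraries were far above all Vehicle libraries, with a log2 fold change of 2.89 ± 0.12 (SE, edgeR adjusted p = 7.83e-09). A further group of peaks, from −5.78 to −4.55 kb relative to this start, was present in all TSA and all Vehicle libraries; it covered the outer 5′ end of Rlbp1 itself (79392250) and the start of the neighbouring gene Fanci (79392312).

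Neurog1 had the largest rise of the 353 genes. Its member, chromosome 13 from 56251706 to 56252671, was the only region at its start and was present in TSA 1, 2 and 4. The −log10(q) was 2.59, 2.36 and 5.69 in these libraries. The peaks of TSA 1 and TSA 2 shared no base and were joined by that of TSA 4. Neurog1 had 7.93, 6.55, 7.11 and 8.13 CPM in TSA 1 to 4 and 0.963, 1.10, 0.758 and 0.633 CPM in Vehicle 1 to 4. The groups did not overlap, and TSA 3, without a peak, had as much RNA as the other TSA samples; the numbers do not tie RNA and H3K9ac libraries to the same animals. RNA rose by 3.08 ± 0.23 on the log2 scale (SE; adjusted p = 1.36e-06 by edgeR).

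Eomes, the transcription factor gene that marks basal progenitors, had 8 regions at its start, of which 7 were more often occupied in TSA and 1 was a member (chromosome 9, 118479306 to 118479835, in TSA 2, 3 and 4). Eomes had 318, 282, 281 and 326 CPM in TSA 1 to 4 and 71.6, 96.2, 60.9 and 55.3 CPM in Vehicle 1 to 4. All TSA libraries were higher, with a log2 fold change of 2.09 ± 0.15 (SE, edgeR adjusted p = 1.36e-06). Tbr1, the neuronal factor downstream, had a member 1.15 kb before an internal RefSeq start, covering the outer 5′ end of the gene (61802863). This member had peaks in all TSA libraries and in Vehicle 1. Tbr1 had 453, 478, 461 and 488 CPM in TSA 1 to 4 and 249, 296, 264 and 200 CPM in Vehicle 1 to 4, again without overlap, a log2 fold change of 0.90 ± 0.11 (SE, edgeR adjusted p = 7.53e-05).

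Pax6 went the other way. Its member, chromosome 2 from 105680662 to 105683409, was the widest of all at 2748 bp, had peaks in all TSA libraries and none in Vehicle, and was also a member at equal list length. Pax6 had 100, 103, 104 and 123 CPM in TSA 1 to 4 and 323, 381, 250 and 301 CPM in Vehicle 1 to 4. All TSA libraries were lower, with a log2 fold change of −1.54 ± 0.12 (SE, edgeR adjusted p = 2.49e-06).

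The member at Pax6 lay in a gap between long peaks of the Vehicle libraries. Within 8 kb of the start, peaks covered 3.51, 7.83, 5.31 and 9.55 kb in TSA 1 to 4 and 10.1, 10.2, 9.76 and 8.38 kb in Vehicle 1 to 4. The longest peak measured 1.17, 1.36, 1.20 and 1.25 kb in TSA 1 to 4 and 5.001, 9.39, 4.94 and 2.19 kb in Vehicle 1 to 4. More TSA occupancy in the member thus stood beside shorter peaks around it, and no test was made of either.

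**Figure D4:**
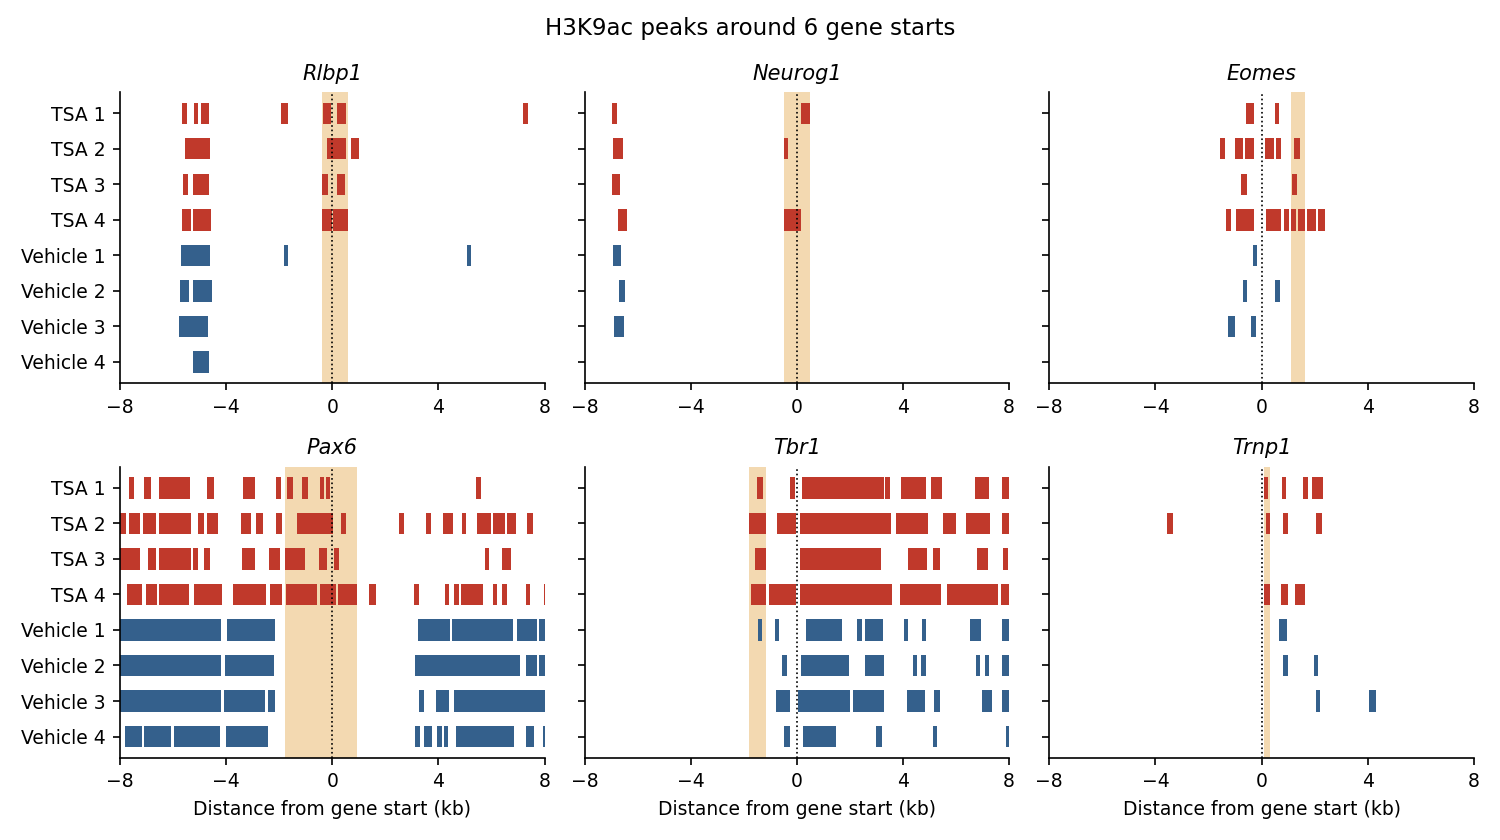
H3K9ac peaks of each library around the starts of 6 genes, with distance from the start in kb (negative before the start, along the gene) and one line per library, TSA in red above Vehicle in blue. The shaded band is the member region. At Pax6 it lies between Vehicle peaks up to 9.39 kb long and holds no Vehicle peak. The start used is internal to the gene for Rlbp1, Pax6, Tbr1 and Trnp1.

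Cdhr1 also fell. Its member, chromosome 14 from 37097892 to 37098516, covered the start and was the only region there, with peaks in TSA 1, 2 and 3. Cdhr1 had 1.22, 2.37, 3.11 and 3.38 CPM in TSA 1 to 4 and 17.9, 16.1, 21.9 and 17.7 CPM in Vehicle 1 to 4. All TSA libraries were lower, with a log2 fold change of −2.78 ± 0.21 (SE, edgeR adjusted p = 1.49e-06).

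The other 5 of the 10 genes with the smallest p rose without overlap between groups. Heg1, a transmembrane receptor gene on the list of basal progenitor genes, averaged 132 ± 4.93 CPM in TSA and 40.7 ± 5.28 CPM in Vehicle (SD, n = 4 each), a log2 fold change of 1.69 ± 0.10 (SE, edgeR adjusted p = 1.22e-07). Sorl1, a sorting receptor gene, had a log2 fold change of 1.49, and Nav2, a gene of neurite outgrowth with 2 members at its start, one of 1.41. Dusp14, which encodes a phosphatase of MAP kinases, rose by 1.27 and Tmem132b, a transmembrane protein gene, by 1.06. Of the 10 genes, only Rlbp1 and Pax6 had a member at their start that was also a member at equal list length.

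**Figure D5:**
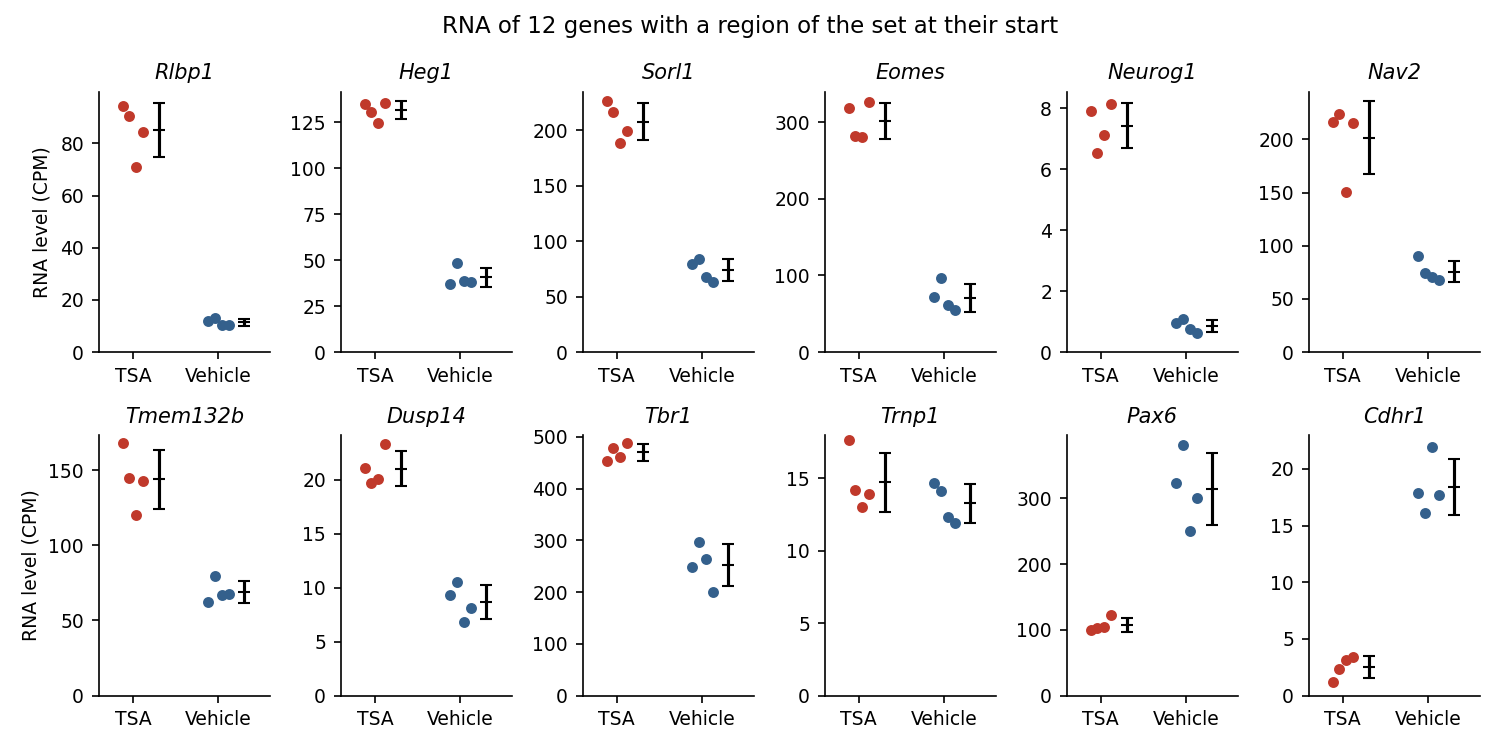
RNA level in CPM of 12 genes with a member within 2.5 kb of their start, one panel per gene on its own scale from 0. Points are the 4 TSA (red) and 4 Vehicle (blue) libraries and black bars the mean ± SD; TSA lies above Vehicle in 9 genes, below it in Pax6 and Cdhr1, and overlaps it in Trnp1.

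Trnp1, the nuclear protein gene named in the title, had a member of 237 bp that began 0.093 kb after an internal start of the gene. This member (chromosome 4, 133498221 to 133498457) had peaks in TSA 1, 2 and 4. Like the members at Eomes, Neurog1 and Cdhr1, it was not a member at equal list length. Peaks within 8 kb of the start covered 0.974, 0.782, 0 and 0.819 kb in TSA 1 to 4 and 0.321, 0.329, 0.436 and 0 kb in Vehicle 1 to 4. Trnp1 RNA was 17.7, 14.2, 13.0 and 13.9 CPM in TSA 1 to 4 and 14.7, 14.1, 12.3 and 11.95 CPM in Vehicle 1 to 4, so the groups overlapped. The change of 0.13 ± 0.13 on the log2 scale (SE) did not pass, with an adjusted p of 0.499 by edgeR.

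Of the 11060 tested genes with a start known from RefSeq, 353 (3.19%) had a member at it, a share that gives 0 or 1 gene in lists of the sizes below. Of 14 basal intermediate progenitor genes with a known start, Heg1, Eomes and Neurog1 had a member there; 11 of the 20 tested rose and 2 fell. Of 15 apical progenitor genes with a known start Pax6 did, while 11 of the 18 tested rose and 4 fell. Of 9 deep-layer neuron genes with a known start Tbr1 did (9 of 15 tested rose, 4 fell), and of 10 young neuron genes Cntn2, an axonal adhesion molecule gene that rose by 0.93 ± 0.14 on the log2 scale (edgeR adjusted p = 0.000280). None of the 11 upper-layer genes with a known start had one there, while 4 of the 16 tested had one inside, Cux2, Dok5 and Lhx2 among them. Of all 15000 tested genes 944 had a member inside, and the difference was not tested. All 16 upper-layer genes were tested, and 13 rose and 2 fell.

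Among chromatin genes with a known start, none of 15 histone acetyltransferase and reader genes and none of 19 deacetylase and corepressor genes had a member there. Of the 19 acetyltransferase and reader genes tested 12 rose and 2 fell, and of the 24 deacetylase and corepressor genes 10 rose and 0 fell. Of 24 BAF complex genes with a known start Dpf1, which encodes a neuronal BAF subunit, had one, and its RNA did not pass (log2 fold change 0.17 ± 0.11, edgeR adjusted p = 0.286). Smarcc1, the gene of the deleted subunit, and its paralog Smarcc2 had none. Smarcc1 had 133, 132, 118 and 144 CPM in TSA 1 to 4 and 130, 148, 141 and 124 CPM in Vehicle 1 to 4 (log2 fold change −0.05 ± 0.09, edgeR adjusted p = 0.732), which does not check the deletion, since both groups carry it.

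Signalling and guidance lists had 0 to 2 genes with a member at a known start. Of 14 genes often induced by deacetylase inhibitors, the immediate early gene Nr4a1 and the factor gene Klf2 had one; Nr4a1 rose by 0.64 ± 0.19 (edgeR adjusted p = 0.0204) and Klf2 had a change of 0.13 ± 0.32 (adjusted p = 0.792). Ctnnb1, which encodes β-catenin, was the 1 of 18 Wnt pathway genes (log2 fold change 0.29 ± 0.14, edgeR adjusted p = 0.140), and Spred1, a MAP kinase inhibitor gene, the 1 of 11 FGF pathway genes (0.03 ± 0.11, adjusted p = 0.887). Of 20 axon guidance genes, Nrp1 and Robo2, both receptor genes, had one; Nrp1 rose by 0.52 ± 0.12 (edgeR adjusted p = 0.00428) and Robo2 had a change of 0.16 ± 0.15 (adjusted p = 0.465). Grik2, a kainate receptor subunit gene and the 1 of 20 synaptic transmission genes, fell by 0.48 ± 0.10 (edgeR adjusted p = 0.00267) although its member was present in all 4 TSA libraries and in no Vehicle library.

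Among markers of other cells with a known start, 1 of 6 Cajal-Retzius genes, Nhlh2, a transcription factor gene, had a member (log2 fold change −0.08 ± 0.13, edgeR adjusted p = 0.688), and 1 of 11 microglia and macrophage genes, C1qc, a complement gene, had one (−0.40 ± 0.25, adjusted p = 0.233). None was found at the known starts of 11 striatal, 12 endothelial, 8 erythroid, 5 meningeal, 21 Notch, 10 Hedgehog and 17 oxidative phosphorylation genes; the other listed genes of these groups could not be scored. Of the 23 oxidative phosphorylation genes 22 fell and none rose.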

How the data were processed

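The members, gene lists and naming rule were chosen with earlier results of these data known. For RNA the authors deposited raw counts of reads per gene without normalization; the TruSeq RNA kit named in the labels' protocols is one that keeps no strand information, so a gene's reads could come from an overlapping or antisense partner. Peaks were called per library with MACS2 2.1.0.20140616 at a q-value limit of 0.1 against the same general input of 18937878 tags for all 8 libraries, per the file headers (the labels list 1 TSA and 1 Vehicle input, and how these relate to it is not given), with build mm10 and SAMtools per the submitters' processing notes; the sources used here name neither aligner nor counter. The authors deposited for each peak the pileup signal, the fold enrichment ratio, −log10 of its p-value and −log10 of its q-value, used here only to rank or filter within a list.

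Counts were tested with edgeR 4.0.16 (filterByExpr, TMM, robust quasi-likelihood test, R 4.3.3), Benjamini-Hochberg adjusted over 15000 genes, with 0.05 as threshold; log2 fold changes are TSA minus Vehicle. CPM is on TMM-scaled totals. Alternatives used DESeq2 1.42.0 and limma 3.58.1 (voom). The test was tested on simulated data. Each RNA library counted once, the chi-square per degree of freedom between replicates of a group being 2.98 to 32.8; nothing in the labels says that replicates were separate animals, so p-values may measure technical spread. Intervals are 95% Wilson intervals and cover counting error only.

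Named regions were the 10 members of difference 4 with the highest median −log10(q) over TSA, the 5 widest, and the 5 strongest at equal list length. Named genes were the 10 with a member at their start and the smallest RNA p, up to 3 per list, and 6 of interest to the study. Neighbouring genes, runs of members, span classes, genes meeting both rules, and the motifs were chosen after values were seen. Ties in q at the equal length were broken by p, fold enrichment and position, a rule set after a first count. Of 47729 genes in the files 47224 had a symbol, and 11060 of those tested had a RefSeq start (GRCm38.p6). Starts on chromosome 18 were not used here, and a few results are not reported here. No genome was used, so the planned 300 bases around peak summits were replaced by RefSeq promoter windows.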

Additional observations from a re-analysis of the deposited data

Results flagged for a closer look

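Of 62 groups of 4 libraries examined, 8 had one library set apart from the other 3 by most of the range of the group; chance flags about 1 in 20 groups. Among the H3K9ac libraries, TSA 4 had 19920755 tags, the other TSA libraries 15365856 to 16018415. Vehicle 4 had 22.7 × 1000 peaks, the other Vehicle libraries 41331 to 43645, and the same library number gave the largest gap between the left-out libraries. Among genes with a member at their start, Pax6 was 123 CPM in TSA 4, above the other TSA libraries and still below all of Vehicle. In TSA 3, Nav2 was 150 CPM and Cntn2 1113 CPM, below the other TSA libraries and above all of Vehicle, while Nhlh2 was 69.8 CPM there, above all other libraries of either group. Ctnnb1 was 1598 CPM in TSA 2, where the other TSA libraries lay between 1547 and 1553 CPM, so its flag marks a narrow group. Heg1 was 48.5 CPM in Vehicle 2, against 37.1 to 38.8 CPM in the other Vehicle libraries.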

How the results depend on the processing

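The number of members was 1776 and fell to 509 at equal list length and to 892 without the shortest list of each group (TSA 3 and Vehicle 4, added after seeing the data). Leaving out 1 library at a time gave 747 (without TSA 4) to 2173 (without Vehicle 3), with 981 without TSA 2. Regions of the other direction, 265, were 140 with peaks closer than 500 bp merged and 131 (without Vehicle 3) to 621 (without Vehicle 4) with 1 library left out. Other ways of treating ties at equal length gave 499 to 668 members. The share of members at a gene start was 15.8% with a 1 kb and 52.7% with a 10 kb window, and 44.0% at equal list length. The cause of these moves was not tested. The difference in peaks per library, 10958, was 6045 to 16331 with 1 library left out and never passed.

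Of genes with a member at their start, 30.03% rose and 9.07% fell; 24.1% rose with no filter on low counts (439 genes tested), 36.1% with a member anywhere in the gene or within 2.5 kb of it, and 11.1% rose and 14.8% fell with no other region at the start. With 1 RNA library left out, 23.0% to 30.8% rose and 7.30% to 11.7% fell. With Xist above 100 CPM as a covariate, added after seeing the data, 13.3% rose and 3.97% fell, and over all genes 757 rose and 818 fell.

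Same-numbered RNA libraries deviated together with r of 0.0970, 0.0851, 0.0696 and 0.111, so the numbers were not taken to pair samples. With the replicate block, 2598 genes rose and 2744 fell, and 32.9% of linked genes rose and 9.35% fell. For the regions, the replicate block gives 1776 and 265 by construction, and for peaks per library an exact p of 0.375.

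Nr4a1, with a log2 fold change of 0.64, lost its call at 0.61 without RNA TSA 1 (edgeR adjusted p = 0.0505) and 0.59 without RNA TSA 4 (adjusted p = 0.0612). With the Xist covariate, which sets TSA 4 alone against Vehicle, the log2 fold change of Nr4a1 was 0.76. In that fit Nrp1 had 0.47, against 0.52 without the covariate, and Smarcc2 had 0.54, against 0.47. Ctnnb1 passed without Vehicle 2 (log2 fold change 0.45, edgeR adjusted p = 0.00524). Signs turned only among genes that passed in no fit. Spred1 was −0.0011 with the Xist covariate, −0.039 without TSA 3, −0.029 without Vehicle 1, −0.015 without Vehicle 4 and −0.11 without the Vehicle pair richest in mitochondrial reads. Without that pair, Nhlh2 was 0.019, Klf2 −0.13 and Robo2 −0.052. Klf2 was −0.075 without Vehicle 1, and Smarcc1 was 0.083 with the Xist covariate and 0.0030 without TSA 3. With 1 RNA library left out, Klf2 ran from −0.075 to 0.42, Spred1 from −0.039 to 0.12 and Smarcc1 from −0.094 to 0.0030.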

Other observations

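Members with peaks in all 4 TSA libraries and in no Vehicle library, named after their values had been seen, lay inside Hdgf on chromosome 3 (log2 fold change 0.09 ± 0.10, edgeR adjusted p = 0.545) and Smchd1 on chromosome 17 (0.34 ± 0.12, adjusted p = 0.0454).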
